A study of Mus musculus with 12 samples.

Results

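Interferon-stimulated genes are the genes that cells switch on when an interferon binds its receptor. A set of 48 of them was followed here, out of 55413 genes in the deposited table. Members were taken by gene symbol, each symbol matched 1 Ensembl gene, and all 48 passed the filter on low expression that left 16459 genes for testing. RNA sequencing had been done on fibroblast cultures grown from collagenase-digested paws of BALB/c mice, and values are regularized log2 (rlog) expression, on which 1 unit is a doubling. The question was which members fall with I-BET151, an inhibitor of the BET bromodomain proteins that read acetylated histones, in every treated library.

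The 12 libraries fall into 4 groups of 3. In the in vivo group, mice received I-BET151 at 20 mg/kg per day into the peritoneum, starting the day before the first injection of monosodium urate (MSU) crystals, and their primed (left) paws received crystals on day 0 and day 9. In the in vitro group, cells grown from primed paws were kept with I-BET151 at 1 µM for 24 h, and the labels do not state what the donor mice had received. Primed vehicle libraries came from left paws, injected on both days, of mice given injections without the drug. Non-primed vehicle libraries came from right paws injected on day 9 alone, so that side of the body and priming cannot be told apart. All groups shared the strain, crystals on day 9, RNA taken on day 18, 5 passages in culture and pooling of cells over 2 to 3 paws. Separate animals are not named for the libraries of a group, so p-values measure the spread between these cultures, which may be technical.

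Type I and type III interferons signal through the kinases JAK1 and TYK2 to a complex that includes STAT2 and IRF9 and binds a promoter element called ISRE. Interferon gamma acts through a second element, GAS. The proteins made in response detect viral RNA and DNA, degrade or sequester RNA, mark proteins with ISG15 and attack the vacuoles of intracellular parasites. Several of them, IRF7, STAT2 and IRF9 among them, raise the response further. BET proteins occupy acetylated promoters of inducible genes in many cell types.

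The labelled tissue is synovial fibroblasts, and 5 libraries went against that label. The mean of 10 melanocyte markers was 13.76 and 13.72 in in vivo libraries 2 and 3 and 13.82 to 15.01 in the 3 libraries labelled non-primed, against 5.71 to 6.89 in the other 7. In the same 5 libraries the mean of 10 fibroblast markers was 6.86 to 11.26, against 14.74 to 15.70. Means of 9 macrophage markers were 4.77 to 7.69 in vivo, 8.34 to 9.41 in vitro, 9.12 to 9.91 in primed vehicle and 4.06 to 6.70 in non-primed libraries. Means of T cell markers stayed between -0.45 and 1.25, and those of endothelial markers between 1.79 and 4.82. Hexim1, an inhibitor of transcription elongation whose transcript rises with BET inhibitors, stood at 13.90, 14.23 and 14.18 in vivo, at 13.92, 14.13 and 13.85 in vitro and at 12.39, 12.19 and 11.98 in primed vehicle. In non-primed libraries Hexim1 stood at 12.19, 12.25 and 14.26, so the library labelled non-primed 3 lay at the level of the treated ones. That library differed from in vivo libraries 2 and 3 by a median of 0.11 and 0.10 log2 units over all tested genes, where in vivo 2 and 3 differed from each other by 0.09. In vivo 1 differed from in vitro 1 by 0.15 and from in vivo 2 and 3 by 0.65 each. In vitro 1 differed from in vitro 2 and 3 by 0.16 and 0.22, so in vivo 1 lay as near to it as its own group did. Whether labels or cultures were exchanged was not tested, and groups and counts of libraries follow the labels. Counts are given with and without these libraries, and single genes where a call changed.

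Interferon-stimulated genes were low in every treated library. The mean over the 48 genes was 7.64, 7.50 and 7.52 in in vivo libraries 1, 2 and 3, and 7.82, 9.33 and 9.34 in in vitro libraries 1, 2 and 3. It was 11.26, 10.98 and 12.05 in primed vehicle libraries and 9.99, 10.46 and 7.37 in the libraries labelled non-primed 1, 2 and 3. The groups of treated and primed vehicle libraries did not overlap in this mean. Low values thus occurred both in fibroblast-rich libraries (in vivo 1 and in vitro 1 to 3) and in melanocyte-rich ones (in vivo 2 and 3), and in the library labelled non-primed 3, whose Hexim1 was high. In bulk RNA, fewer cells of a type and less RNA per cell cannot be told apart.

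**Figure D1:**
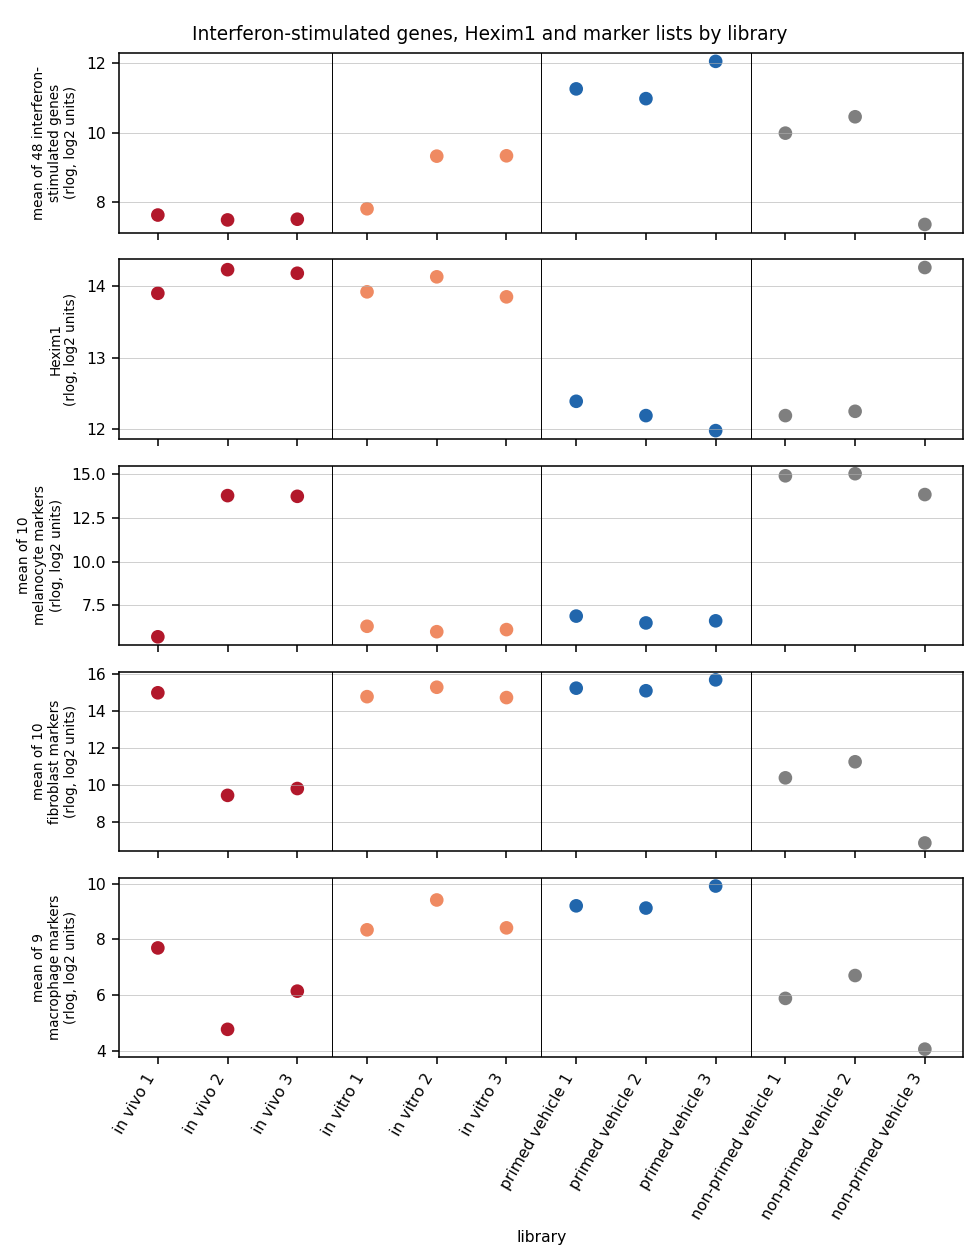
Mean rlog value of the 48 interferon-stimulated genes, the rlog value of Hexim1 and the mean of 3 marker lists (vertical axes, log2 units) in each of the 12 libraries (horizontal axis), 1 point per library, coloured by group. The interferon-stimulated mean is at most 9.34 in the 6 treated libraries and at least 10.98 in primed vehicle, and the library labelled non-primed 3 has a low mean (7.37) beside a high Hexim1 (14.26).

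Of the 48 genes, 45 lay below all 3 primed vehicle libraries in each of the 6 treated libraries. Over all 16459 tested genes this held for 18.7%. The exceptions were Herc6, Irf7 and Gbp5. Counted library by library, all 48 lay below every vehicle value in in vivo 1 and 47 in each of the other 5 treated libraries. Over all tested genes this held for 38.5%, 45.6% and 45.3% in in vivo libraries 1, 2 and 3. It held for 38.3%, 37.3% and 35.9% in in vitro libraries 1, 2 and 3. The median distance from the vehicle mean was -4.10, -3.82 and -3.73 log2 units in in vivo libraries 1, 2 and 3, and -3.97, -2.05 and -2.30 in in vitro libraries 1, 2 and 3. In vitro library 1 thus lay nearer to the in vivo libraries than to its own group, and 46 of the 48 genes were lower in it than in in vitro 2. The same median over all tested genes was between -0.06 and -0.01 in the 6 libraries.

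**Figure D2:**
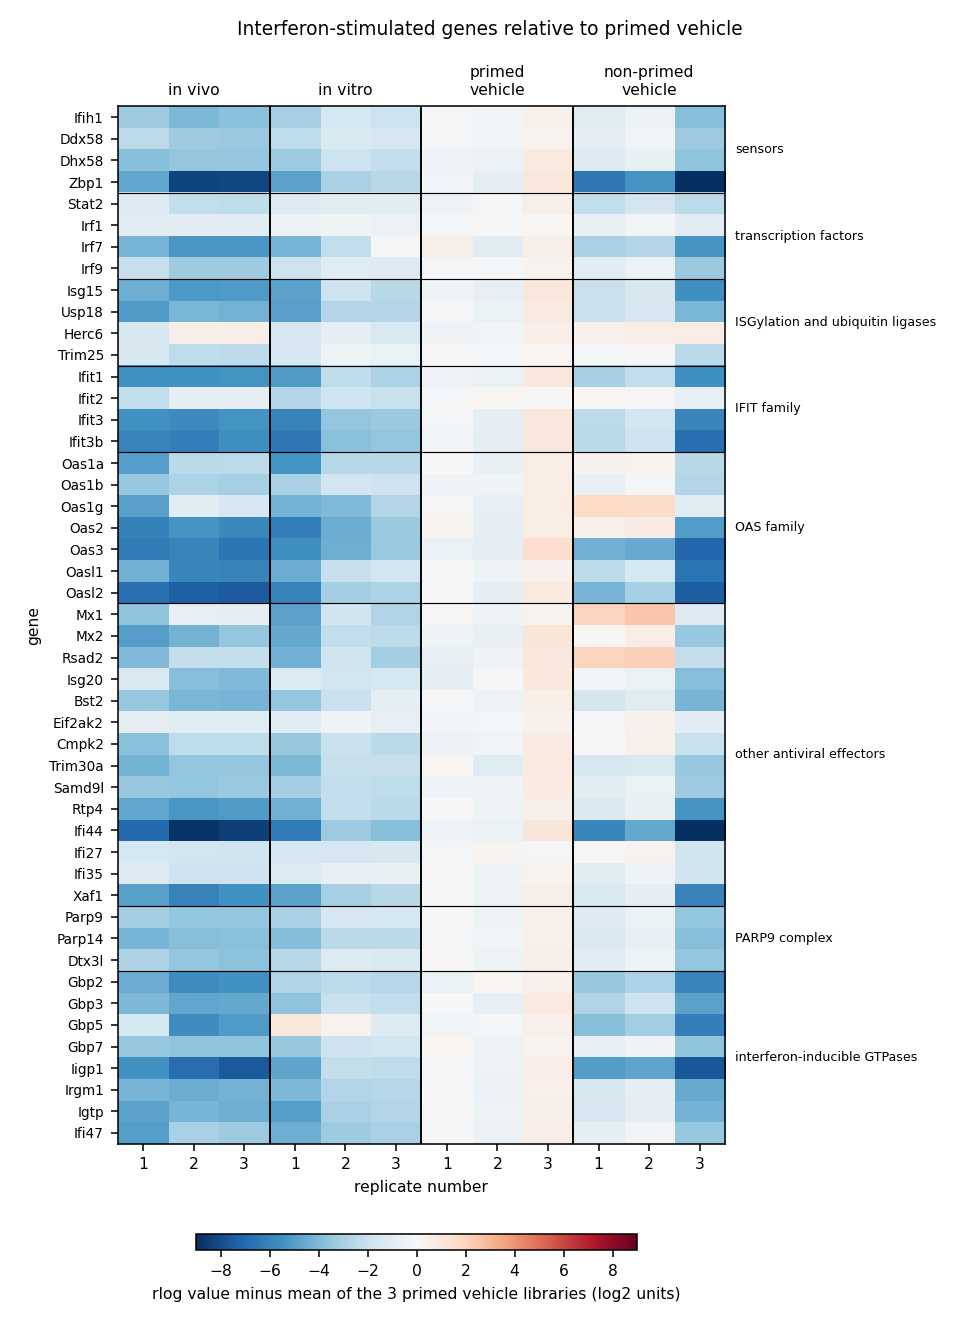
Each cell is the rlog value of 1 gene (rows, grouped by role) in 1 library (columns, by group and replicate number) minus the mean of the 3 primed vehicle libraries, in log2 units, with blue for lower and red for higher. Blue runs through all 6 treated columns and the column of the library labelled non-primed 3, with Herc6 (in vivo 2 and 3) and Gbp5 (in vitro 1 and 2) among the few pale or reddish cells.

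In the comparison of in vivo treated with primed vehicle libraries, 44 of the 48 genes fell and none rose (limma, 3 libraries per group, adjusted p under 0.05). Over all tested genes 13.8% were called lower and 10.2% higher. The 48 differences had a median of -3.73 log2 units and ran from -8.09 to -0.09, where the median over all tested genes was -0.05. Centring libraries on their medians gave 11.8% lower and 15.7% higher over all genes, a shift of the overall median to 0.13, and left 44 members lower. Herc6 had the only difference whose sign turned, at 0.10 after centring and 0.01 after quantile normalization. Means of the 9 macrophage markers were 7.69, 4.77 and 6.14 in vivo, against 9.20, 9.12 and 9.91 in primed vehicle, and their part in these falls was not tested. With in vivo library 1 alone against vehicle, 42 genes fell with a median of -4.10, against 7.52% of all tested genes called lower. The lone library is there assumed to vary like vehicle, and over all tested genes it lay nearest to in vitro library 1 (median distance 0.15). Ifi35, Isg20, Eif2ak2, Stat2 and Gbp5 did not pass in that fit, nor did Herc6, and Ifit2, Mx1 and Oas1g, which had not passed with all 3, did.

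Cells treated in vitro were set against primed vehicle cells, both fibroblast-rich, and 44 of the 48 genes fell and none rose. Over all tested genes 16.9% were called lower and 13.4% higher. The median was -2.67 and the range -4.67 to 0.02, with -0.02 over all tested genes. Median-centred libraries gave 13.9% lower and 18.9% higher over all genes and again 44 members lower. The count changed with the fit. It was 8, against 2.76% of all genes, when all 12 libraries shared 1 spread, and 3, against 1.39%, when genes with little or no expression were kept in the fit. Without in vitro library 1, 39 genes fell, with a median of -2.19, against 10.0% of all tested genes. Ifi35, Irf1, Herc6, Trim30a, Isg20 and Bst2 then no longer passed, and Trim25 did. Macrophage marker means were 8.34, 9.41 and 8.41 in vitro and 9.20, 9.12 and 9.91 in primed vehicle, and their part was not tested.

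**Figure D3:**
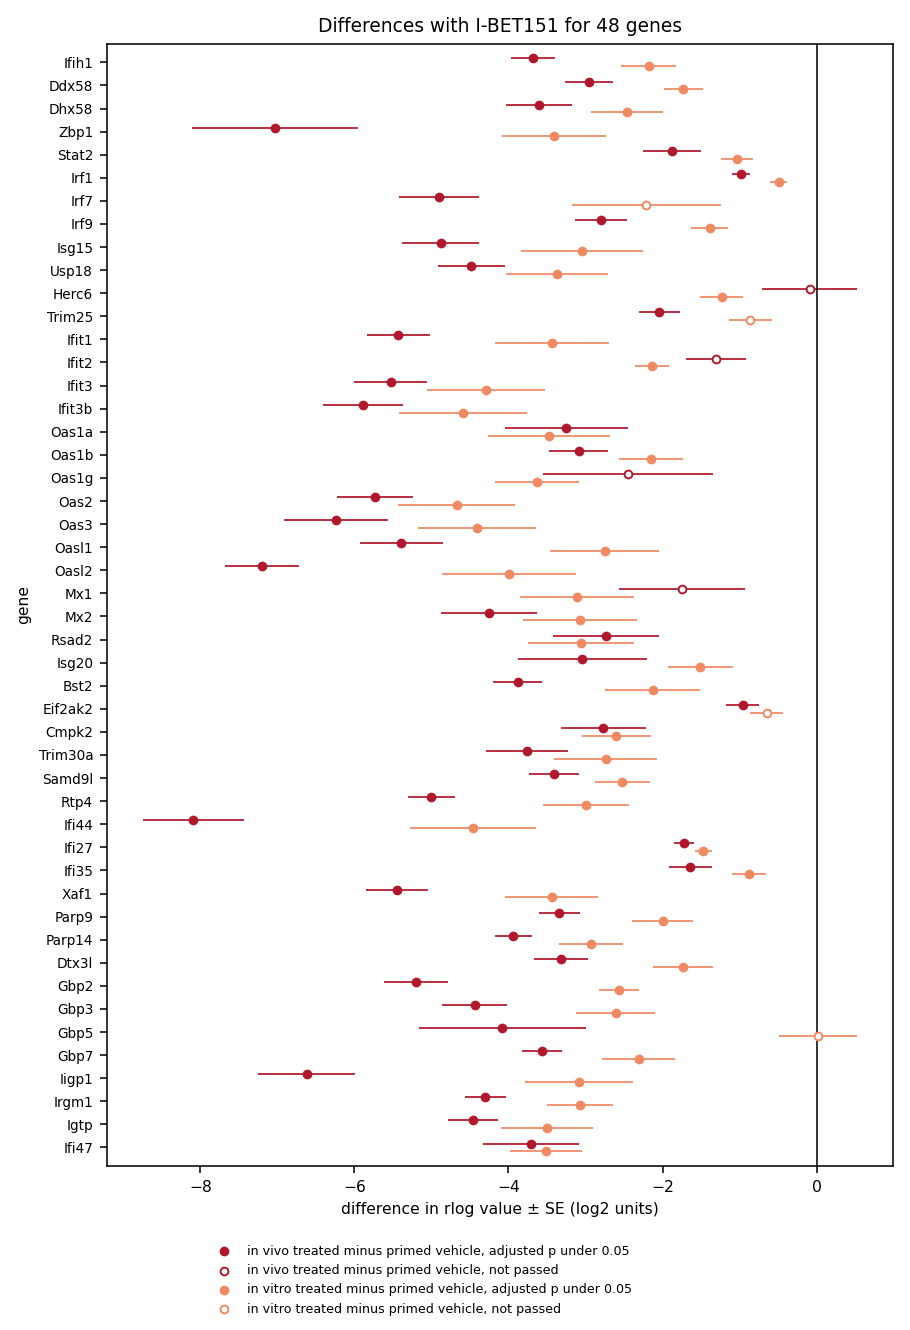
Difference in rlog value (horizontal axis, log2 units) with its standard error for each of the 48 genes (vertical axis), for in vivo treated (dark red) and in vitro treated (orange) against primed vehicle libraries, filled where the adjusted p was under 0.05. All in vivo differences lie below 0, from -8.09 (Ifi44) to -0.09 (Herc6, above 0 under other scalings), and all in vitro differences do except that of Gbp5 (0.02).

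Promoter sequences were examined for the ISRE and GAS elements. Members were chosen as interferon-stimulated genes, so a high share of matches goes with that choice and is no result about the treatments. RefSeq start-site windows (GRCm38.p6, 250 bases before to 50 after the start) were at hand for 36 of the 48 genes. The ISRE was searched as 2 copies of GAAA with any 2 bases between them and the GAS as TTCNNNGAA, on both strands, and overlapping matches were counted. An ISRE match lay in 21 of the 43 windows of member genes (48.8%) and in 3.44% of all 32851 windows. A GAS match lay in 10 of the 43 (23.3%) and in 8.30% of all windows. The following stretches show the matches in genes described below, each read 5′ to 3′ on the strand of its gene. Capitals mark ISRE and GAS matches, and an ISRE on the opposite strand reads as 2 copies of TTTC. Isg15 lies at chr4:156200859-156200908 (minus strand), Ifit1 at chr19:34640770-34640829, Ifit3 at chr19:34583358-34583432 and Ifit3b at chr19:34607754-34607828 (plus strand).
Isg15: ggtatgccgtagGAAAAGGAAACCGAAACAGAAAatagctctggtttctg
Ifit1: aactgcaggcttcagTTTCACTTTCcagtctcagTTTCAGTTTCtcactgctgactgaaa
Ifit3: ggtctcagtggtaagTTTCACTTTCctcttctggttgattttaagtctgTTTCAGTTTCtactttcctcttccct
Ifit3b: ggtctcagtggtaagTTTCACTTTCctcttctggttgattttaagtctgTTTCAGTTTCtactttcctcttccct

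The Isg15 stretch holds 3 overlapping ISRE matches, and the Ifit3 and Ifit3b stretches are identical over all 75 bases. The next stretches come from the 2'-5' oligoadenylate synthetase gene Oas1a (chr5:120907526-120907560, minus strand), the guanylate-binding protein gene Gbp2 (chr3:142620584-142620633, plus strand), the immunity-related GTPase gene Igtp (chr11:58199496-58199545, plus strand) and Irf1 (chr11:53769909-53769948, plus strand). They are shown for the arrangement of the motifs, with overlapping ISRE matches in Oas1a, a single one in Gbp2, GAS beside ISRE in Igtp and GAS with no ISRE in the window of Irf1. Gbp5 (chr3:142496760-142496899, plus strand) is shown because it did not fall in culture. Its window begins at 142496684, inside the annotated gene, which begins at 142493978. GAS matches at bases -245 to -237 of Gbp5 and -98 to -90 of Oas1a lie outside the stretches shown.
Oas1a: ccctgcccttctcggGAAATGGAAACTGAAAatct
Gbp2: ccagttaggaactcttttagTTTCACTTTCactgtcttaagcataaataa
Igtp: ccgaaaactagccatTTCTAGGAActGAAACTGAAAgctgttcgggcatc
Irf1: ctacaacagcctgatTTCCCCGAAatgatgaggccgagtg
Gbp5: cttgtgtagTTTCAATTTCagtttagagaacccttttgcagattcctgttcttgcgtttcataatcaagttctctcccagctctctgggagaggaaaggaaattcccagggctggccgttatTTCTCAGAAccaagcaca

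Members with and without a match fell to overlapping extents. In culture the 20 genes with an ISRE match had a median difference of -2.90 (-4.59 to 0.02), and the 16 without one -2.17 (-4.46 to -0.49). In vivo the medians were -3.98 with and -3.18 without a match. The 10 genes with a GAS match had medians of -1.82 in culture and -3.14 in vivo, and the 26 without -2.74 and -4.03. These are descriptions of letters in a window, with no test.

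**Figure D4:**
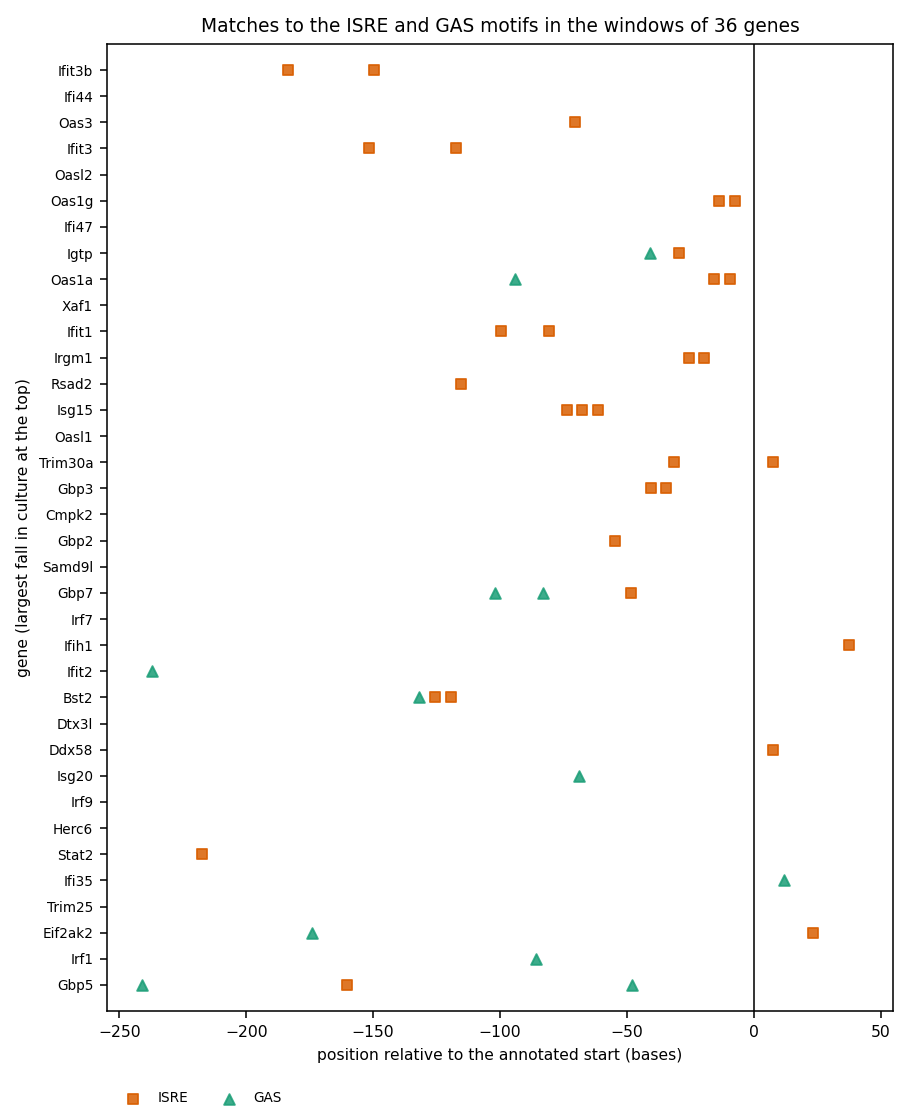
Middle of each ISRE (square) and GAS (triangle) match relative to the annotated start (horizontal axis, bases) for the 36 genes with a window (vertical axis), ordered by their difference in culture with the largest fall at the top. Matches occur from top to bottom of the order, and Gbp5, at the bottom, holds both motifs.

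Sensors of nucleic acids fell together. Zbp1, which detects Z-form nucleic acids and can trigger cell death, stood at 7.01, 3.44 and 3.52 in vivo, 6.85, 8.78 and 9.17 in vitro, and 11.46, 10.90 and 12.68 in primed vehicle. Its treated values did not overlap with primed vehicle, with in vivo 2 and 3 lowest, but in vivo 1 lay above in vitro 1. It fell by 7.03 ± 1.08 in vivo (SE, n = 3 per group, as for differences below unless libraries are named as left out or used alone, adjusted p = 0.0133, limma) and by 3.41 ± 0.68 in vitro (adjusted p = 0.0118). Dhx58, which encodes LGP2, a regulator of RNA sensing, stood at 6.60, 7.0 and 6.96 in vivo, 7.21, 8.53 and 8.22 in vitro, and 10.11, 9.89 and 11.35 in primed vehicle. It fell by 3.60 ± 0.43 in vivo and fell by 2.46 ± 0.47 in vitro. The RNA helicase sensors Ifih1 (MDA5) and Ddx58 (RIG-I) fell as well, with differences of -3.68 ± 0.29 and -2.95 ± 0.31 in vivo and of -2.18 ± 0.36 and -1.73 ± 0.25 in vitro.

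Among the 4 transcription factors all fell in vivo and 3 fell in vitro. Irf7, which drives interferon genes in infected cells, stood at 8.82, 7.74 and 7.76 in vivo and at 13.52, 12.00 and 13.50 in primed vehicle, a difference of -4.90 ± 0.52 (adjusted p = 0.00601). In vitro it stood at 8.79, 10.78 and 12.82, so that in vitro library 3 lay within the range of vehicle, and the difference of -2.21 ± 0.97 did not pass (adjusted p = 0.126). Irf9, a DNA-binding partner of STAT2, stood at 10.00, 8.90 and 8.89 in vivo, at 10.15, 10.99 and 10.89 in vitro, and at 11.93, 11.92 and 12.35 in primed vehicle. Every treated value of Irf9 was below the vehicle range, and it fell by 2.80 ± 0.34 in vivo and fell by 1.39 ± 0.24 in vitro. Stat2 fell by 1.88 ± 0.38 in vivo and fell by 1.03 ± 0.21 in vitro. Irf1, a factor that also answers interferon gamma and whose window holds the GAS match shown above, had small differences of -0.98 ± 0.12 in vivo and -0.49 ± 0.11 in vitro, which passed. Without in vitro library 1 Irf1 did not pass (-0.47 ± 0.13, adjusted p = 0.0586). With in vivo library 1 alone Stat2 did not pass (-1.15 ± 0.34, adjusted p = 0.10).

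The ISG15 system held both strong falls and an exception. Isg15, a ubiquitin-like modifier with the triple ISRE match, stood at 8.35, 7.60 and 7.64 in vivo, 7.96, 10.86 and 10.27 in vitro, and 12.45, 11.99 and 13.79 in primed vehicle. It fell by 4.88 ± 0.50 in vivo (adjusted p = 0.00564) and fell by 3.05 ± 0.79 in vitro (adjusted p = 0.0279). Usp18, which removes ISG15 from proteins and restrains the type I receptor, stood at 7.47, 8.42 and 8.29 in vivo, 7.65, 9.92 and 9.91 in vitro, and 12.36, 11.94 and 13.32 in primed vehicle. For both genes the lowest in vitro value was that of library 1.

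Herc6, the mouse ligase that attaches ISG15, did not follow them in vivo. It stood at 9.32 in in vivo 1 and at 11.29 and 11.36 in in vivo 2 and 3, against 10.42, 10.48 and 11.32 in primed vehicle, so that the fibroblast-rich in vivo library was below the vehicle range and the melanocyte-rich ones were at its top. The difference was -0.09 ± 0.62 with all 3 in vivo libraries (adjusted p = 0.922) and -1.43 ± 0.41 with in vivo 1 alone (adjusted p = 0.0906). In culture, at 9.28, 9.89 and 9.38, Herc6 fell by 1.23 ± 0.28, and without in vitro library 1 it did not pass (-1.11 ± 0.32, adjusted p = 0.0686). A share of 23.8% of the 50-base stretches of its transcript is also in the predicted gene Gm45193, so reads could be split between them. Trim25, a ubiquitin ligase that activates RIG-I, stood at 11.22, 10.34 and 10.28 in vivo, 11.11, 12.21 and 12.06 in vitro, and 12.63, 12.52 and 12.79 in primed vehicle. All its treated values were below vehicle, with a difference of -2.04 ± 0.27 in vivo that passed, but -0.86 ± 0.28 in vitro did not pass (adjusted p = 0.0552).

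The IFIT genes, which lie together on chromosome 19 and encode proteins that bind viral RNA, gave some of the largest falls. Ifit3 stood at 7.43, 7.16 and 7.54 in vivo, 6.91, 9.38 and 9.57 in vitro, and 12.75, 12.08 and 13.90 in primed vehicle. No treated value came near the vehicle range. Ifit3 fell by 5.53 ± 0.47 in vivo (adjusted p = 0.00431) and fell by 4.29 ± 0.77 in vitro (adjusted p = 0.00833). Ifit3b, its near copy, fell by 5.89 ± 0.52 and fell by 4.59 ± 0.83. Ifit3 shares 51.2% of its 50-base transcript stretches with Ifit3b, so both values are uncertain as separate genes. Ifit1 fell by 5.43 ± 0.41 in vivo and fell by 3.43 ± 0.74 in vitro.

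Ifit2 moved less, and its order of the treatments was the other way round. It stood at 9.72, 11.01 and 11.10 in vivo, 9.30, 10.10 and 9.93 in vitro, and 11.74, 12.08 and 11.94 in primed vehicle. All treated values were below vehicle, with the melanocyte-rich in vivo 2 and 3 nearest to it. It fell by 2.14 ± 0.22 in vitro, while the in vivo difference of -1.31 ± 0.39 did not pass (adjusted p = 0.0592). With in vivo library 1 alone it fell by 2.20 ± 0.19 (adjusted p = 0.0130).

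The OAS genes lie on chromosome 5 and encode enzymes, or relatives of enzymes, that make 2'-5' linked adenylates and so activate RNase L. All 7 fell in vitro and 6 fell in vivo. Oas2 stood at 2.27, 3.01 and 2.50 in vivo, 2.08, 3.85 and 5.00 in vitro, and 8.59, 7.41 and 8.96 in primed vehicle. It fell by 5.73 ± 0.49 in vivo (adjusted p = 0.00451), and its difference of -4.67 ± 0.76 in vitro (adjusted p = 0.00616) was the largest of the 48 there. Oas3 stood at 1.88, 2.28 and 1.68 in vivo, 2.65, 3.82 and 4.86 in vitro, and 7.58, 7.31 and 9.68 in primed vehicle. Values this low are strongly shrunken by the rlog transformation, which understates their differences. Oasl2, an OAS-like relative, fell by 7.20 ± 0.48 in vivo and fell by 3.99 ± 0.87 in vitro.

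Oas1a and Oas1g showed the same split between in vivo libraries as Ifit2. Oas1g stood at 2.50 in in vivo 1 and at 6.37 and 5.89 in in vivo 2 and 3, at 3.11, 3.38 and 4.73 in vitro, and at 7.46, 6.60 and 8.06 in primed vehicle. All its treated values were below vehicle, but the in vivo difference of -2.45 ± 1.10 did not pass (adjusted p = 0.137). With in vivo 1 alone Oas1g fell by 4.87 ± 0.64 (adjusted p = 0.0218), and in vitro by 3.63 ± 0.54. Oas1a fell by 3.25 ± 0.80 in vivo and fell by 3.47 ± 0.79 in vitro. The pair shares 57.6% of the stretches of Oas1a, so these values are uncertain as separate genes. Oas1b, whose protein is truncated in most laboratory strains, fell by 3.09 ± 0.38 and fell by 2.15 ± 0.41.

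**Figure D5:**
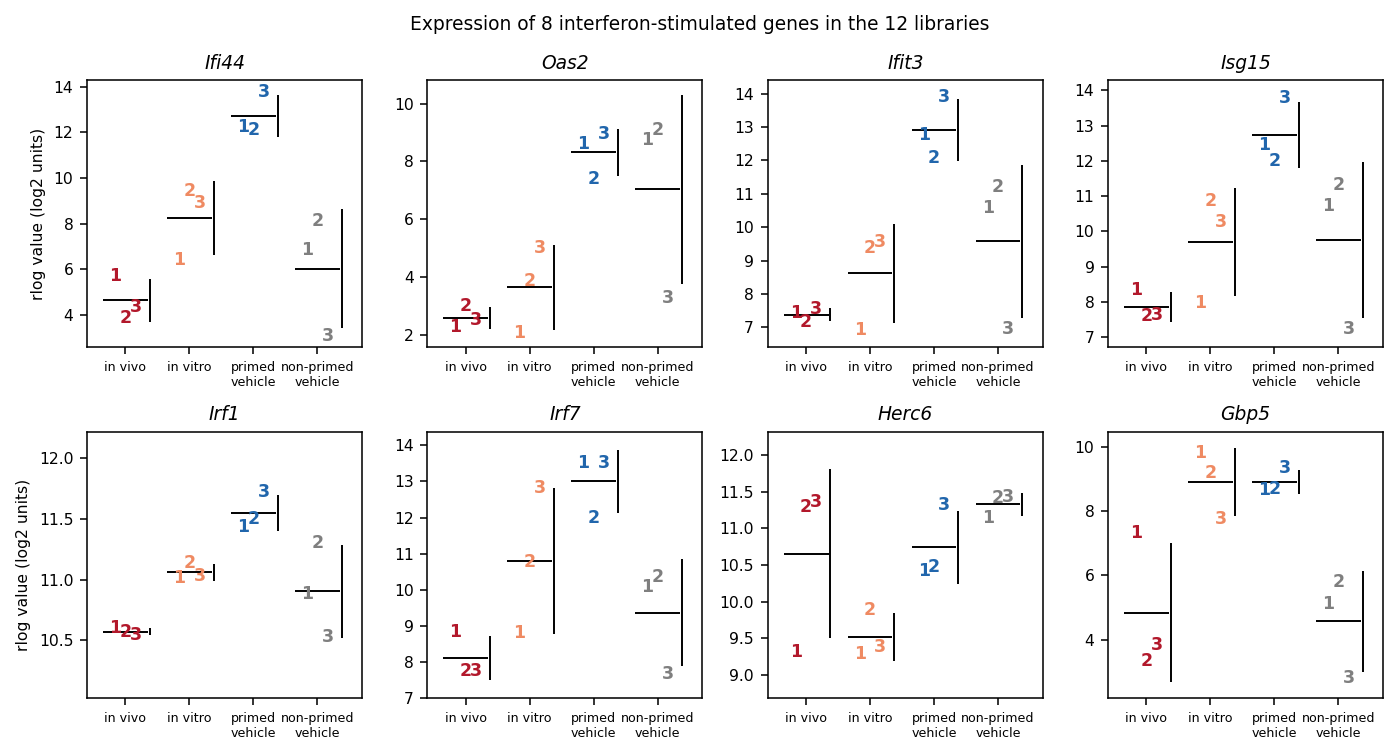
Rlog value (vertical axes, log2 units) of 8 genes in the 12 libraries, drawn as the replicate number of each library within its group (horizontal axes), with the group mean as a horizontal line and the SD as a vertical line. Ifi44, Oas2, Ifit3, Isg15 and Irf1 lie below primed vehicle in all treated libraries, while Irf7 (in vitro 3), Herc6 (in vivo 2 and 3) and Gbp5 (in vitro 1 and 2) do not.

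Of the 14 other antiviral effectors, 13 fell in vivo and 13 in vitro. Ifi44, an interferon-induced cytoplasmic protein, stood at 5.70, 3.86 and 4.33 in vivo, 6.42, 9.45 and 8.89 in vitro, and 12.26, 12.10 and 13.79 in primed vehicle. Its difference in vivo (-8.09 ± 0.66, adjusted p = 0.00423) was the largest of the 48, and in vitro it fell by 4.46 ± 0.82 (adjusted p = 0.00907). Xaf1, an antagonist of an inhibitor of apoptosis, stood at 6.73, 5.59 and 6.19 in vivo, 6.78, 8.62 and 9.16 in vitro, and 11.59, 11.14 and 12.14 in primed vehicle. Neither gene overlapped with vehicle in any treated library.

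Mx1, a dynamin-like GTPase against influenza viruses whose gene is disrupted in BALB/c and most other inbred strains, stood at 3.01, 5.84 and 5.72 in vivo, 1.77, 4.84 and 3.88 in vitro, and 6.70, 6.23 and 6.90 in primed vehicle. It fell by 3.11 ± 0.74 in vitro, and the in vivo difference of -1.75 ± 0.82 did not pass (adjusted p = 0.151). With in vivo 1 alone Mx1 fell by 3.60 ± 0.43 (adjusted p = 0.0188). Eif2ak2, the kinase PKR that halts translation on double-stranded RNA, had narrow values, at 12.25, 11.98 and 11.98 in vivo, 12.11, 12.74 and 12.30 in vitro, and 12.77, 12.89 and 13.45 in primed vehicle. It fell by 0.96 ± 0.21 in vivo, and -0.65 ± 0.22 in vitro did not pass (adjusted p = 0.0666). With in vivo 1 alone Eif2ak2 did not pass (-0.78 ± 0.29, adjusted p = 0.153). Other effectors fell in both comparisons. Rsad2, which encodes viperin, differed by -2.73 ± 0.69 in vivo and -3.06 ± 0.69 in vitro. Bst2, which encodes tetherin and holds budding virus at the cell surface, differed by -3.88 ± 0.32 in vivo and -2.13 ± 0.62 in vitro, and Rtp4 by -5.00 ± 0.31 and -2.99 ± 0.56. Without in vitro library 1 Bst2 did not pass (-1.45 ± 0.41, adjusted p = 0.0654).

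Parp14, Parp9 and Dtx3l, neighbours on chromosome 16 whose products act together in ADP-ribosylation and ubiquitylation, fell in both comparisons. Parp14 stood at 8.22, 8.60 and 8.64 in vivo, 8.50, 9.98 and 10.02 in vitro, and 12.24, 12.18 and 12.87 in primed vehicle. It fell by 3.94 ± 0.24 in vivo (adjusted p = 0.00348) and fell by 2.93 ± 0.42 in vitro (adjusted p = 0.00447). Parp9 fell by 3.34 ± 0.27 and fell by 2.00 ± 0.40. The annotated genes Parp9 and Dtx3l overlap on opposite strands, and the strand setting of the counting is not stated in the labels.

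The interferon-inducible GTPases, some of which damage the vacuoles of intracellular parasites and bacteria, all fell in vivo, and 7 of 8 fell in vitro. Igtp stood at 6.20, 6.81 and 6.56 in vivo, 6.04, 8.04 and 8.36 in vitro, and 10.95, 10.53 and 11.48 in primed vehicle. It fell by 4.46 ± 0.32 in vivo (adjusted p = 0.00376) and fell by 3.50 ± 0.60 in vitro (adjusted p = 0.00713). Ifi47 stood at 4.13, 6.13 and 5.77 in vivo, 4.63, 5.86 and 6.14 in vitro, and 8.98, 8.52 and 9.66 in primed vehicle. Its differences were -3.71 ± 0.62 in vivo and -3.51 ± 0.47 in vitro, and no treated value reached the vehicle range. Gbp2 fell by 5.20 ± 0.41 in vivo and fell by 2.56 ± 0.26 in vitro.

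Gbp5, which promotes inflammasome assembly, stood apart. It stood at 7.32, 3.34 and 3.83 in vivo and at 8.67, 8.71 and 9.35 in primed vehicle, a difference of -4.08 ± 1.08 (adjusted p = 0.0450) in which in vivo 1 lay nearest to vehicle. With that library alone the difference of -1.59 ± 0.37 did not pass (adjusted p = 0.0602). In vitro Gbp5 stood at 9.83, 9.20 and 7.76, on both sides of the vehicle range, with a difference of 0.02 ± 0.51. Its neighbours in the Gbp cluster on chromosome 3, Gbp2, Gbp3 and Gbp7, fell in both comparisons. In the comparison of in vitro with in vivo libraries Gbp5 had the largest difference of the 48, 4.10 ± 1.18, which did not pass (adjusted p = 0.232).

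In vitro treated libraries were compared with in vivo treated ones to ask whether the falls differed in size. No member and no other tested gene was called in either direction (limma, 0% of 16459). Of the 48, 28 had an unadjusted p under 0.05, where 19.2% of all tested genes did, the median difference was 1.22 and 6 were lower in vitro. In 22 genes every in vitro value was above every in vivo value, against 11.6% of all tested genes. Without in vitro library 1 this held for 39 genes, against 18.6%. The number with an unadjusted p under 0.05 was 11 without in vitro 2 and 12 without in vitro 3. It was 14 without in vivo 2 and 13 without in vivo 3, with 3.31% to 6.11% of all genes in these fits. It was 35 without in vitro 1, against 7.56% of all genes, and 34 without in vivo 1, against 68.1%. Without in vivo library 1, which leaves 2 melanocyte-rich libraries on that side, 26 members were higher and 3 lower in vitro, where 35% of all genes were called higher and 29.5% lower. With in vivo 1 alone, a setting added once results were known, the in vitro mean was higher in 47 of 48 genes, with a median difference of 1.25. In 30 genes every in vitro value was above in vivo 1, against 22.2% of all tested genes. Set against in vitro 1 by itself, in vivo 1 was lower in 31 of the 48, with a median difference of -0.14.

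Primed vehicle libraries were compared with non-primed ones to see how an earlier exposure to crystals marked these genes. Of the 48 genes 15 rose and none fell. Over all tested genes 27.7% were called higher, a share near that of the members, and 21.2% were called lower. Zbp1 had the largest rise, 7.07 ± 1.06 (adjusted p = 0.00239), with 11.46, 10.90 and 12.68 in primed and 5.22, 6.34 and 2.27 in non-primed libraries. In 31 of the 48 genes primed values lay above all non-primed ones, against 33.7% of all genes. Macrophage marker means were 9.12 to 9.91 in primed vehicle and 4.06 to 6.70 in non-primed libraries, and their part was not tested. Every non-primed library was melanocyte-rich and every primed vehicle one was not, so that priming and this split cannot be told apart.

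The library labelled non-primed 3 set the spread in that comparison. It was lower than non-primed 1 and than non-primed 2 in 47 of the 48 genes, with a median distance of 2.54 and 3.02 log2 units. Without it 25 genes rose and 3 fell, against 31.0% and 24.6% of all genes. The 3 that fell were Mx1 (-2.25 ± 0.32), Rsad2 (-2.07 ± 0.48) and Oas1g (-1.75 ± 0.43), and Mx1 stood at 6.70, 6.23 and 6.90 in primed and at 8.59, 9.12 and 5.48 in non-primed libraries. The rises of 3 genes were the largest with and without that library, with Zbp1 at 5.90 ± 0.57, Ifi44 at 5.22 ± 0.59 and Iigp1, an immunity-related GTPase, at 4.92 ± 0.34. The median difference was 0.90 without that library and 1.81 with it. Without non-primed 2 the count of rises was 23 (25.5% of all genes), and without primed vehicle 3 it was 9 (22.1%). Quantile normalization gave 20 rises and 2 falls, against 23.3% and 32.1% of all genes, a scaling that moved the overall median to -0.24.

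In vivo treated primed libraries were compared with non-primed vehicle libraries, which brings together mostly melanocyte-rich cultures. No member passed (limma), nor did any other of the 16459 genes (0%), and 13 members had an unadjusted p under 0.05, where 5.12% of all tested genes did. That number was 0 without in vivo 1, without non-primed 1 or without non-primed 2, against 1.63%, 0.523% and 0.857% of all tested genes. It was 5 without in vivo 2 and 6 without in vivo 3, against 4.28% and 3.29%. It was 43 without the library labelled non-primed 3, where 20.2% of all genes had such a p. Oas2 had the largest difference, -4.44 ± 1.57 (adjusted p = 0.565), with 2.27, 3.01 and 2.50 in vivo and 8.76, 9.09 and 3.26 in the libraries labelled non-primed 1, 2 and 3. The median over the 48 was -1.80. Without the library labelled non-primed 3, 17 genes fell, where 0.608% of all tested genes were called lower, and 44 of 48 lay below both remaining non-primed libraries in all in vivo libraries, against 23.7% of all genes. Oas2 fell by 6.33 ± 0.40 in that fit (adjusted p = 0.0436). Against in vivo libraries 2 and 3, the library labelled non-primed 3 differed by a median of 0.12 log2 units each over the 48 genes.

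The interferons themselves were hardly detected. Ifna1, Ifna2, Ifna4, Ifna5, Ifnl2 and Ifnl3 were listed at 0 in all 12 libraries. Ifnb1, interferon beta, stood at -0.77, -0.86 and -0.92 in vivo, -0.84, -0.86 and -0.26 in vitro, -0.88, 1.30 and 1.77 in primed vehicle and -0.36, -0.37 and -0.85 in non-primed libraries. None of the 10 interferon genes looked up passed the filter on low expression, so none was tested.

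Receptors and signalling genes moved in both directions. Of 28 further pathway genes tested, 9 fell and 1 rose in vivo, and 7 fell and 6 rose in vitro, with medians of -0.45 and -0.08. Over all tested genes 13.8% were called lower and 10.2% higher in vivo, and 16.9% lower and 13.4% higher in vitro. Ifnar1, a subunit of the type I receptor, rose by 0.57 ± 0.13 in vitro, at 13.28, 13.48 and 13.01 in treated against 12.62, 12.67 and 12.78 in primed vehicle libraries, and Ifngr1 rose by 0.33 ± 0.09. Jak1 rose by 0.88 ± 0.14 and Stat3 by 0.39 ± 0.11 in the same comparison. Ifnlr1, the type III receptor subunit, fell by 2.01 ± 0.30 in vivo and fell by 2.09 ± 0.30 in vitro. Of the 6 receptor genes tested, 4 fell and none rose in vivo, and 1 fell and 2 rose in vitro. Ifnar2 (-1.78 ± 0.35), Ifngr2 (-1.19 ± 0.29) and Il10rb (-0.92 ± 0.12) also fell in vivo. In vitro they did not pass, at -0.22 ± 0.13, -0.26 ± 0.09 and -0.27 ± 0.12. Ifnar1 (0.24 ± 0.12) and Ifngr1 (-0.04 ± 0.18) did not pass in vivo.

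Among genes that lead to interferon production, 5 of 10 fell in vitro, against 16.9% of all tested genes, and 4 in vivo, against 13.8%. Tlr3, a receptor of double-stranded RNA, fell by 2.05 ± 0.20 in vitro, at 8.28, 8.89 and 8.69 in treated against 10.52, 10.56 and 10.92 in primed vehicle libraries. Irf5 (-1.42 ± 0.26), Ikbke, a kinase that activates IRF3 and IRF7 (-1.09 ± 0.17), Tmem173, which encodes STING (-0.99 ± 0.19), and Traf3 (-0.58 ± 0.10) fell too. In vivo Irf5 (-2.25 ± 0.25), Ikbke (-2.06 ± 0.22), Tmem173 (-1.10 ± 0.18) and Traf3 (-0.72 ± 0.11) fell, and Tlr3 (-1.55 ± 0.52) did not pass. Of 5 negative regulators, 2 rose in vitro, and 1 rose and 1 fell in vivo. Socs3, an inhibitor of cytokine signalling, rose by 1.01 ± 0.17 in vitro, and differed by -2.21 ± 1.23 in vivo, which did not pass (adjusted p = 0.207). It stood at 13.36 in in vivo 1 and at 8.93 in both in vivo 2 and 3, against 12.53, 12.49 and 12.83 in primed vehicle. The fibroblast-rich in vivo library was thus above the vehicle range and the melanocyte-rich ones below it. Socs1, another such inhibitor, fell by 1.63 ± 0.40 in vivo (adjusted p = 0.0382) and did not pass in vitro (-0.54 ± 0.27, adjusted p = 0.17). Pias1, an inhibitor of cytokine signalling in the nucleus, rose by 0.85 ± 0.10 in vivo and 0.63 ± 0.10 in vitro.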

How the data were processed

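RNA was sequenced from 12 libraries in 4 groups of 3, as their titles give them. Stranded polyadenylated RNA libraries were made, per the labels' protocols. Per the submitters' processing notes, cutadapt 1.18, STAR 2.6.1c, featureCounts of Subread 1.6.1, DESeq2 1.24.0 and build GRCm38 were used. Their settings were not stated. The authors deposited rlog values, on a log2 scale. The table keeps no read counts, so depth is unknown and no count model was used.

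All 55413 identifiers matched a symbol. Coordinates are from GENCODE M21 (GRCm38), start-site windows from RefSeq (GRCm38.p6). Genes with a mean rlog of at least 3 were fitted (16459) with limma 3.58.1 in R 4.3.3 (lmFit, eBayes with trend), using only the 6 libraries compared, because the groups differ in spread. P-values are two-sided and Benjamini-Hochberg adjusted over all tested genes, called under 0.05. An exact permutation test of 3 against 3 cannot go below 0.1 and was not used. The fit was tested on simulated data.

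The members, lists and rule for named genes (the 2 largest differences of each role in culture, every exception, and the largest difference of each comparison, with others by counts) were chosen with earlier results of these data known. Ifih1, Ddx58, Stat2, Irf1, Ifit1, Oas1a, Oas1b, Oasl2, Rsad2, Bst2, Rtp4, Gbp2, Iigp1, Ifi35, Isg20 and Trim30a were named in addition after their values were seen. Alternatives were other filters, moderation, scalings, a spread shared by all 12 libraries, the replicate block and leaving out libraries.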

Additional observations from a re-analysis of the deposited data

How the results depend on the processing

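The direction of every called member held under all alternatives run. Members lower in vivo than in primed vehicle numbered 28 with the replicate block, against 1.79% of all genes in that fit. They numbered 31 to 46 with single libraries left out, against 2.22% to 36.8%, and the 46 came with the 36.8%. Members lower in vitro than in primed vehicle numbered 3 with no filter on low values, against 1.39%. They numbered 8 with a spread shared by all 12 libraries, against 2.76%, and 43 with the replicate block, against 12.8%. With single libraries left out they numbered 32 to 44, against 9.4% to 15.5%. Members higher in primed than in non-primed vehicle numbered 3 with no filter, against 7.46%. They numbered 24 with the shared spread, against 28.9%, and 11 with the replicate block, against 24.7%. Leaving out single libraries gave 9 to 25 higher there, against 22.1% to 31%, and 0 to 3 lower, against 15% to 24.6%. Quantile normalization gave 2 lower, against 32.1%. Members lower in vivo than in non-primed vehicle numbered 0 to 17, against 0% to 0.608%. In vitro against in vivo 0 to 26 were higher, against 0% to 35%, and 0 to 3 lower, against 0% to 29.5%. The cause of these shifts was not tested, apart from the smaller number of libraries in some. Correlations of same-numbered libraries were -0.0594, 0.105 and -0.152 in vivo and -0.268, 0.158 and -0.0329 in vitro against primed vehicle, and 0.249, -0.435 and 0.369 in vivo against non-primed. No comparison had all 3 over 0.1, so the numbers were not taken to pair the samples. With no read counts, the precision of low values such as those of Oas2 and Oas3 is unknown. Melanocyte marker levels separated libraries within or between groups in all comparisons except in vitro against primed vehicle.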
